A study of Mus musculus with 2 samples.

Results

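The CCR4-NOT complex shortens the poly(A) tails of mRNAs, and 10 genes for its subunits (Cnot1, Cnot2, Cnot3, Cnot4, Cnot6, Cnot6l, Cnot7, Cnot8, Cnot10 and Cnot11) were followed here in splenic Treg cells. They were chosen by symbol among the 20938 genes of the tables, and all 10 were found. RNA-seq was available for 1 library from littermate controls (Ctrl) and 1 library labelled KD, both prepared on day 7 post-transplantation. The recipients had a C57BL/6J background, were made diabetic with streptozotocin, carried BALB/c islets under the kidney capsule and received no mAbs. According to the protocol text, the KD library came from Foxp3-Mettl14f/+ cKO mice, in which Cre under the Foxp3 promoter removes 1 floxed copy of Mettl14. The study's methods give the littermate controls as Mettl14f/f, and the sample label as wild type. The genotype label of the KD library reads Foxp3 knockdown instead. Foxp3 RNA had values of 1497 in Ctrl and 1548 in KD. By western blot, the paper reported lower FOXP3 protein in Treg cells of Foxp3-Mettl14f/+ cKO mice, which RNA values do not address. Mettl14, the targeted gene, had 917 in Ctrl and 741 in KD, a log2 fold change of -0.31 (95% interval -0.45 to -0.16). It became -0.02 when the T cell core genes described below were equalised. Over all genes compared, the median change was -0.04 before that step and 0.24 after it, so Mettl14 was below the median both times. The cells were taken with a magnetic CD4+CD25+ isolation kit, and how many animals went into each library is not given in the sources used here.

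CCR4-NOT is the main cytoplasmic deadenylase. Cnot1 is the large scaffold on which the other subunits assemble. Catalysis is shared by 2 kinds of nuclease, the CCR4-type enzymes encoded by Cnot6 and Cnot6l and the CAF1-type enzymes encoded by Cnot7 and Cnot8. Cnot2 and Cnot3 form the NOT module at the C-terminal end of the scaffold, Cnot10 and Cnot11 bind its N-terminal part, and Cnot4 is a ubiquitin ligase that associates loosely with the complex. RNA-binding proteins bring the complex to chosen mRNAs. Among them is YTHDF2, which binds mRNA carrying m6A, the mark that the METTL3 and METTL14 methyltransferase writes.

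The catalytic subunits come as paralogs, so their sequences bear on whether reads could be told apart. The coding sequences of Cnot7 (855 bases) and Cnot8 (876 bases) were identical at 71.5% of 854 aligned bases. Those of Cnot6 (1671 bases) and Cnot6l (1665 bases) were identical at 73.3% of 1650 aligned bases. In each alignment the longest identical run was 20 bases. Among stretches of 90 coding bases that start in frame and hold no gap, the most alike in each pair is shown. It is written 5′ to 3′ on the coding strand, with the bases that differ between the paralogs in capitals. The stretches are coding bases 403 to 492 of Cnot7 and Cnot8 and 814 to 903 of Cnot6 and Cnot6l, read from GENCODE vM21 transcripts on GRCm38. They lie within chr8:40499421-40500822 (minus strand), chr11:58113143-58113968 (plus strand), chr11:49681265-49682097 (minus strand) and chr5:96086263-96091642 (minus strand), spans that include intron sequence not shown.
Cnot7: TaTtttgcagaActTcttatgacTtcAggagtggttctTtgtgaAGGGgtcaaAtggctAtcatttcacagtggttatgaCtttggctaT
Cnot8: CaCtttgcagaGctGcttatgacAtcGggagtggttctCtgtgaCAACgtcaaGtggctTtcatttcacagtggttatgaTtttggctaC
Cnot6: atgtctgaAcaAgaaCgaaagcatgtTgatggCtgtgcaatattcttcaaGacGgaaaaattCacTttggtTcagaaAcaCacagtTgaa
Cnot6l: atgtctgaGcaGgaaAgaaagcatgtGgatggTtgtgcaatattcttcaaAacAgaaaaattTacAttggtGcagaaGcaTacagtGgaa

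In these in-frame stretches, Cnot7 and Cnot8 differed at 15 and Cnot6 and Cnot6l at 13 of 90 bases. Windows of 50 bases were searched in 1 transcript of each member, that with the longest coding sequence, which for Cnot6l was the one of 3170 bases and not the longest of 8564. In these, no window was shared with another member. Cnot2, Cnot4, Cnot6, Cnot6l, Cnot10 and Cnot11 shared 0 such windows with any annotated gene. The remaining members did share windows with genes outside the complex, either pseudogenes or genes that overlap on the opposite strand. The reads of those members are therefore less certain. Processed pseudogenes took part for Cnot1 (Gm6158, 10.05% of windows shared in all), Cnot3 (Gm9207, 32.1%, of which Leng1 made part) and Cnot8 (Gm18860, 9.85%). None of these pseudogenes is a row of the tables. On the opposite strand, Cnot3 overlapped Leng1 by 433 exonic bases and Cnot7 overlapped Zdhhc2 by 247. Cnot2 overlapped 5330438D12Rik by 232, although its searched transcript shared no window, and Cnot1 overlapped 4930513N10Rik by 132. Values for 5330438D12Rik and 4930513N10Rik were not available. The strandedness of the counting is not given in the sources used here, and without strand the reads of these bases cannot be told apart. Leng1 had values of 523 in Ctrl and 441 in KD, and Zdhhc2 had 127 and 132.

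Each table gives read counts scaled by a constant of its library, and undoing that scaling gave totals of 20239325 reads in Ctrl and 18327535 in KD. At this depth a floor of 3 reads corresponds to 0.148 per 1000000 reads in Ctrl and 0.164 in KD, far below any subunit gene. Levels below are deposited values, and changes are the log2 of the KD value plus 1 over the Ctrl value plus 1. With 1 library per group there is no spread between replicates, and no difference given here has a replicate check. Intervals are exact, at 95%, and reflect only the counting of reads, which without molecular identifiers are not independent molecules.

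The cell type markers were not equal in the libraries, which touches every value below. The 16 T cell core genes had a summed value of 73992 in Ctrl and 59890 in KD, and the 12 Treg genes had 9450 and 10380, so the labelled cells were present in both. B cell genes (11 of 12 found) had 8341 and 46644, with 11 of 11 at least 1.5-fold higher in KD. Macrophage genes had 25231 and 52256, with 12 of 12 higher and Marco at 0 in Ctrl, and CD8 T and NK cell genes had 5625 and 10979, with 6 of 10 higher. Erythroid genes (11 of 12 found) had 50376 and 21384, with 10 lower, while the 12 granulocyte genes had the highest sums, 260987 and 355221, with 2 higher and 2 lower. In such bulk samples, fewer cells of a type and less RNA per cell cannot be told apart. The part of these cells in the subunit values was not tested. Because the share of T cell transcripts differed, each change was also computed after the T cell core genes had been equalised between the libraries. Over all genes the median change was then 0.24 in place of -0.04, so values on that scale are to be read against 0.24. That scaling moves every change by about 0.28 and equal library totals move it by -0.09, so a change between -0.28 and 0.09 turns its sign under 1 of them.

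The scaffold gene Cnot1 (ENSMUSG00000036550, chr8:95719451-95807464, minus strand) had the highest value of the members, 11993 in Ctrl from 12397 reads and 11769 in KD from 10349 reads. Its log2 fold change was -0.03 (-0.07 to 0.01), within counting error on the deposited scale. It was -0.12 with library totals set equal and 0.26 with the T cell core equalised.

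The NOT module genes were as close. Cnot2 (ENSMUSG00000020166, chr10:116485161-116581511, minus strand) had values of 2227 in Ctrl and 2261 in KD, and its log2 fold change of 0.02 (-0.07 to 0.11) became -0.07 with library totals set equal. Cnot3 (ENSMUSG00000035632, chr7:3645268-3661109, plus strand) had 3320 in Ctrl and 3276 in KD, a change of -0.02 (-0.09 to 0.05) that became 0.26 with the T cell core equalised. Summed, these partners changed by -0.0026 on the log2 scale (-0.058 to 0.053), and by -0.09 (-0.15 to -0.04) with library totals set equal. Cnot3 took 59.9% (58.6 to 61.1) of the reads of the pair in Ctrl and 59.2% (57.8 to 60.6) in KD.

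Cnot11 had the highest and Cnot10 the lowest change of the members, and their products both bind the N-terminal part of the scaffold. Cnot11 (ENSMUSG00000003135, chr1:39534992-39546889, plus strand) had the lowest value in Ctrl, 770 from 796 reads, and 1096 in KD from 964 reads. KD was 1.42-fold higher, a log2 fold change of 0.51 (0.37 to 0.65). It stayed above 0 in every scaling tried, at 0.42 with library totals and 0.79 with the T cell core equalised. Cnot10 (ENSMUSG00000056167, chr9:114585878-114640184, minus strand) had 1469 in Ctrl from 1518 reads and 1236 in KD from 1087 reads. Its change of -0.25 (-0.36 to -0.14) became 0.03 with the T cell core equalised, where the median over all genes compared was 0.24. Cnot11 supplied 34.4% (32.5 to 36.4) of the reads of the pair in Ctrl and 47.0% (44.8 to 49.2) in KD, intervals that do not overlap. The ratio of Cnot11 to Cnot10 went from 0.524 to 0.887, a log2 difference of 0.76 (0.58 to 0.94) that no scaling of the libraries can alter. The sum of the pair changed little, by 0.06 (-0.03 to 0.15). This pair and that of Cnot2 and Cnot3 were set side by side after their values had been seen.

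The CAF1-type nuclease genes were both higher in KD with the values as deposited. Cnot7 (ENSMUSG00000031601, chr8:40492540-40515847, minus strand) had 1052 in Ctrl from 1087 reads and 1272 in KD from 1119 reads, a log2 fold change of 0.27 (0.15 to 0.40). Cnot8 (ENSMUSG00000020515, chr11:58104153-58118594, plus strand) had 1682 from 1739 reads and 1848 from 1625 reads, a change of 0.14 (0.04 to 0.23). With library totals set equal Cnot7 was at 0.18 (0.06 to 0.31), while Cnot8 was within counting error at 0.05 (-0.05 to 0.14). Their sum was higher by 0.19 (0.11 to 0.27), and by 0.10 (0.02 to 0.18) with library totals set equal. Cnot8 took 61.5% (59.7 to 63.3) of the reads of the pair in Ctrl and 59.2% (57.4 to 61.1) in KD, and the difference of the log2 ratio, -0.14 (-0.30 to 0.02), was within counting error.

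The CCR4-type nuclease genes moved less. Cnot6 (ENSMUSG00000020362, chr11:49671503-49712723, minus strand) had 2428 in Ctrl and 2457 in KD, and its change of 0.02 (-0.07 to 0.10) became -0.07 with library totals set equal. Cnot6l (ENSMUSG00000034724, chr5:96070333-96164171, minus strand) had 3322 and 3595, a change of 0.11 (0.04 to 0.18) that was 0.02 with library totals set equal. Together they were at 0.07 (0.02 to 0.13) as deposited and at -0.02 (-0.07 to 0.04) with library totals set equal. Cnot6l took 57.8% (56.5 to 59.0) of the reads of the pair in Ctrl and 59.4% (58.1 to 60.7) in KD, again a log2 ratio difference within counting error at 0.10 (-0.01 to 0.21).

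**Figure D1:**
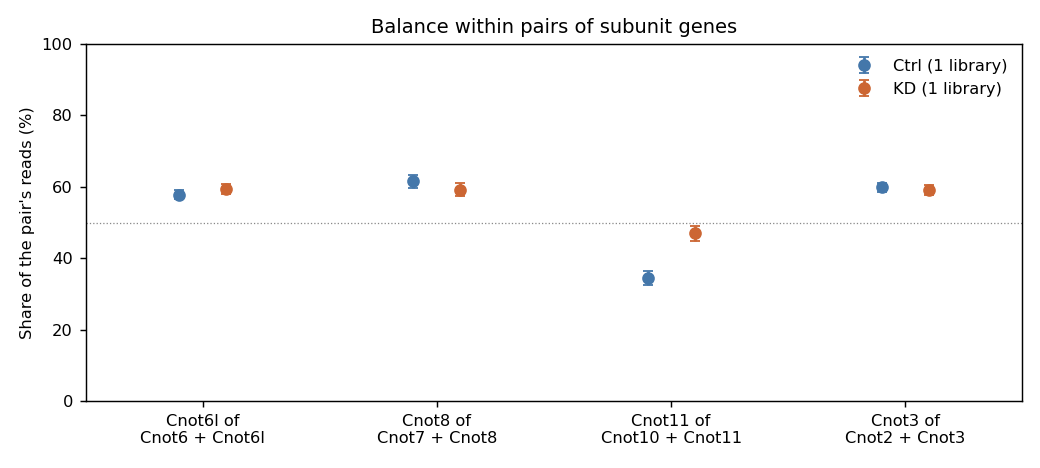
Share of reads within pairs of subunit genes. The vertical axis is the percentage of the reads of the pair that belong to the gene named first, points are the single Ctrl and KD libraries, bars are exact 95% binomial intervals and the dotted line marks equal reads. The share of Cnot11 is 34.4% in Ctrl and 47.0% in KD, while the intervals of the other 3 pairs overlap between the libraries.

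Cnot4 (ENSMUSG00000038784, chr6:35022065-35133724, minus strand), the ubiquitin ligase gene, had 2031 in Ctrl from 2099 reads and 1760 in KD from 1548 reads. Its log2 fold change was -0.21 (-0.30 to -0.11), and 0.08 with the T cell core equalised. Cnot9, a core subunit outside the chosen 10, had 1439 and 1200, a change of -0.26 (-0.38 to -0.15) that became 0.02 with the T cell core equalised. On that scale the median over all genes compared was 0.24.

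**Figure D2:**
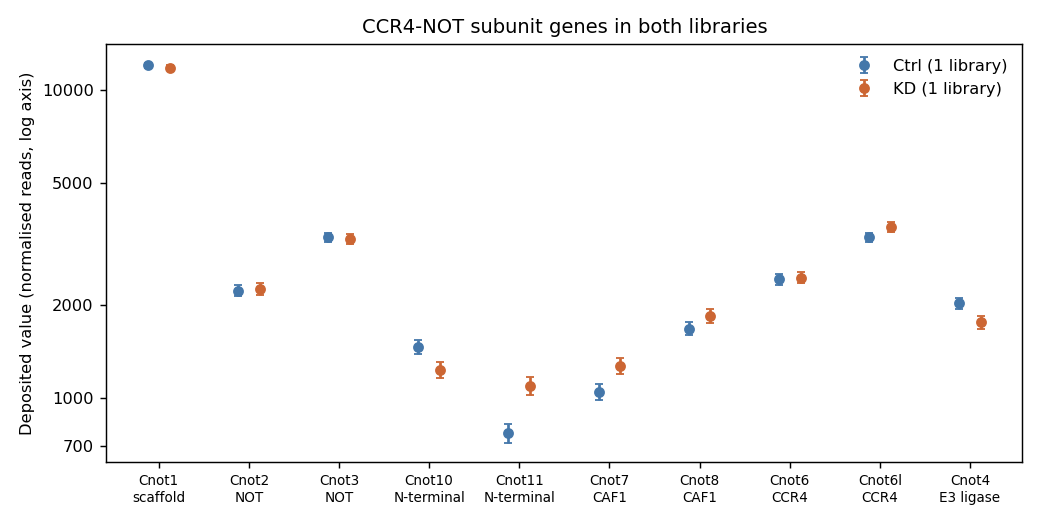
Deposited value of each subunit gene in both libraries, on a log axis and ordered by role. Points are the single Ctrl and KD libraries and bars are exact 95% Poisson intervals on the reads. Cnot1 stands at 11993 and 11769, the other genes lie between 770 and 3595, and the intervals of Cnot4, Cnot6l, Cnot7, Cnot10 and Cnot11 do not overlap between the libraries. Counting error separates most genes at this depth: the exact binomial test on the reads called 71.8% of the 14863 genes tested. With library totals set equal, Cnot6l was within counting error at 0.02 (-0.05 to 0.09).

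Each gene was also set against the sum of the other 9 subunit genes, a measure free of library scaling. The order was the same, which is close to given because the measure restates the same KD to Ctrl ratios. Cnot11 was higher in KD by 0.51 (0.37 to 0.65), Cnot7 by 0.27 (0.15 to 0.40), Cnot8 by 0.13 (0.03 to 0.23) and Cnot6l by 0.11 (0.04 to 0.19). Lower in KD on this measure were Cnot10 at -0.27 (-0.39 to -0.16), Cnot4 at -0.23 (-0.33 to -0.14) and Cnot1 at -0.07 (-0.11 to -0.02). The intervals of Cnot2, Cnot3 and Cnot6 included 0. As a share of all reads of the 10 genes, Cnot11 went from 2.54% to 3.59%, Cnot7 from 3.47% to 4.16%, Cnot10 from 4.85% to 4.04% and Cnot4 from 6.70% to 5.76%. The 4 nuclease genes together stood to the other 6 at a ratio of 0.389 in Ctrl and 0.429 in KD, a log2 difference of 0.14 (0.09 to 0.19). That grouping was made after the values had been seen.

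**Figure D3:**
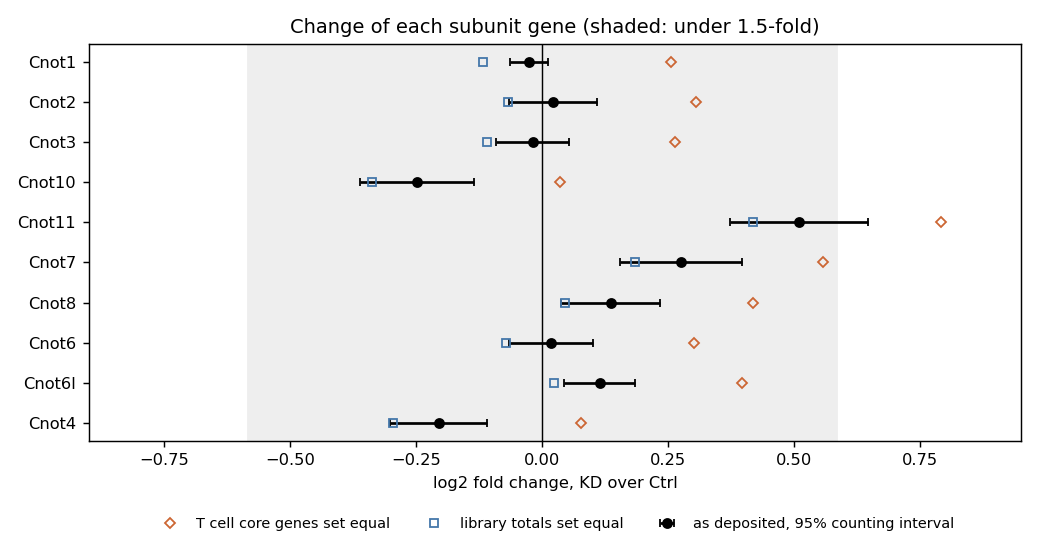
Change of each subunit gene, as the log2 of KD over Ctrl. Black points are the deposited values with exact 95% counting intervals, squares set library totals equal and diamonds equalise the T cell core genes, and the shaded band is under 1.5-fold. Cnot11 (0.51) is the highest and Cnot10 (-0.25) the lowest. With the T cell core equalised all 10 lie above 0, but the median over all genes compared is then 0.24. Cnot4 (0.08) and Cnot10 (0.03) lie below that median.

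As a group the RNAs of the 10 subunit genes were level between the libraries on the deposited scale, though not in every scaling. The 10 genes summed to 31314 reads in Ctrl and 26883 in KD, which is 1547 and 1467 per 1000000 reads of the libraries. In deposited values the sums were 30293 and 30570, a log2 ratio of 0.01 (-0.01 to 0.04). The ratio was -0.08 with library totals and 0.30 with the T cell core equalised, a range set by the scaling and wider than the counting interval. The median change of the members was 0.02, against -0.04 for the 16659 genes with a mean value of at least 1 and 0.05 for the 4961 of them whose mean value lay in the range of the members, 933 to 11881. The members thus lay above the former and below the latter median.

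None of the 10 members was 1.5-fold higher or lower in KD with the deposited values, 0 in each direction. Of all genes compared, 17.2% were at least 1.5-fold higher and 24.2% lower. Many of those genes have few reads, so the members were also set beside the 4961 genes of their range. Among these, 10.1% were higher and 5.22% lower. In that range 59.9% of genes changed by less than 0.3 on the log2 scale, as did 9 of the 10 members, with Cnot11 the exception. The SD of the changes was 0.22 over the members, 0.51 over the genes of their range and 1.55 over all genes. With the T cell core set equal, 1 member, Cnot11, was past 1.5-fold, in the higher direction. On that scale 4547 of the 16659 genes compared were at least 1.5-fold higher and 3247 lower.

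**Figure D4:**
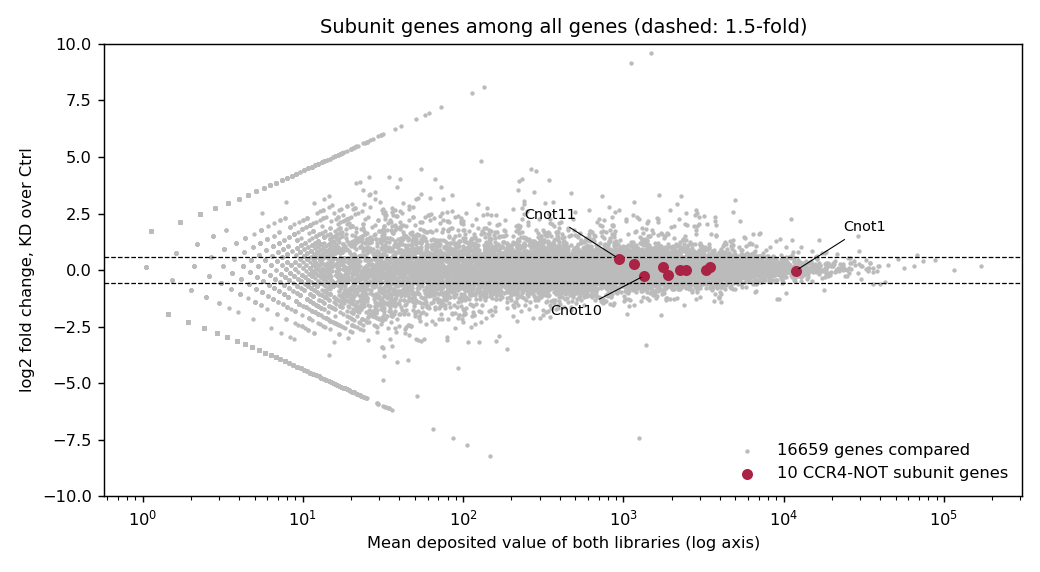
Subunit genes among all genes compared. The horizontal axis is the mean deposited value of both libraries on a log axis, the vertical axis is the log2 of KD over Ctrl, grey points are the 16659 genes, red points are the 10 subunit genes and dashed lines mark 1.5-fold. All 10 red points lie between the dashed lines.

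An exact binomial test on the reads compares the libraries and not the genotypes. At an adjusted p under 0.1 it called 7 of the 10 members, 4 higher (Cnot6l, Cnot7, Cnot8 and Cnot11) and 3 lower (Cnot1, Cnot4 and Cnot10), against 71.8% of the 14863 genes with at least 10 reads. The share of members called was near that background. When an assumed biological coefficient of variation of 0.4 stood in for the missing replicates, the exact test of edgeR called 0 members and 798 genes.

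Levels of different genes were compared per kilobase of the longest coding transcript. In Ctrl the order was Cnot1 (1429 per kilobase), Cnot3 (1177), Cnot8 (801), Cnot2 (795), Cnot4 (585), Cnot10 (515), Cnot6 (423), Cnot6l (388), Cnot7 (353) and Cnot11 (221). Only the neighbours Cnot8 and Cnot2 did not differ beyond their counting intervals in that order. In KD the first 6 places were held by the same genes in the same order, from 1403 for Cnot1 to 433 for Cnot10. Cnot6 (428), Cnot7 (427) and Cnot6l (420) could not be separated from their neighbours there, nor could Cnot10 from Cnot6 or Cnot8 from Cnot2, and Cnot11 was again last at 315. The order depended on the length used. With the length of all exons of each gene, Cnot8 (638 in Ctrl, 701 in KD) stood beside Cnot1 (699 and 685) at the top, and Cnot7 (181) was last in Ctrl and Cnot4 (180) in KD.

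The sequence GGACT, a form of the motif at which m6A is often placed, was counted in the transcript with the longest coding sequence of each gene. It was present in 8 of 10 members, and in 88.3% of 20325 genes. Cnot6 held the most per kilobase, 1.92, followed by Cnot4 with 1.44 and Cnot1 with 1.31, while Cnot3 and Cnot6l held 0. For Cnot6l the transcript counted had 3170 bases, and its longest transcript, of 8564 bases, was not searched. The count of members holding the motif and their median rest on that choice. The median over members was 0.788 per kilobase, against 1.02 over all genes with quartiles of 0.579 and 1.53. Cnot10, with the lowest change, held 1.05 per kilobase, and Cnot11, with the highest, held 0.862. The motif is a description of the letters, and m6A itself is not measured in these files.

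RefSeq promoters on GRCm38.p6 were found for 8 members with 14 start sites, and Cnot1 and Cnot7 were not matched. In the 100 bases before the start, the letters CCGGAAG or, on the other strand, CTTCCGG, the core of sites of ETS transcription factors, were present at 2 of the 14 starts and at 4.52% of 32851 starts in all. Those 2 starts belonged to Cnot10 and Cnot11, the genes with the lowest and the highest change, and are shown for that reason, 5′ to 3′ on the strand of the gene with the motif in capitals. The Cnot10 stretch is chr9:114640201-114640300 (minus strand), and the Cnot11 stretch of 30 bases is chr1:39535608-39535637 (plus strand), with the motif 82 bases before the start.
Cnot10: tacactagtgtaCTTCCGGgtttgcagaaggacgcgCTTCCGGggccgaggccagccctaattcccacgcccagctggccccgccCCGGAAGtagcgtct
Cnot11: cgccccgccccCTTCCGGacacggcgcccc

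Cnot10 held the motif 3 times and Cnot11 held it 1 time, and the deposited values of these genes differed in opposite directions. With the T cell core equalised, Cnot10 was at 0.03 and Cnot11 at 0.79, against a median of 0.24 over all genes compared. GGGCGG or CCGCCC, the letters of GC boxes, stood at 7 of 14 starts from 6 members and at 24.7% of all starts. The 14 starts had a median of 10 CpG in the 100 bases, against 3 over all starts. The motifs were searched after the values had been seen, and a match is no evidence of binding.

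Among genes around the complex, some adaptors and recruiters were past 1.5-fold. With the deposited values, 17.2% of all genes compared were at least 1.5-fold higher and 24.2% lower, shares to be set beside the deposited values of each list below. BTG and TOB proteins hold on to the CAF1-type nucleases and promote deadenylation. Of 6 such genes 5 were compared (Btg4 was at 0 in both libraries), with a median of 0.44, and 2 were at least 1.5-fold higher and 0 lower. With the T cell core equalised, 3 were higher and 0 lower, against 4547 higher and 3247 lower of the 16659 genes compared. Btg1 had values of 13570 in Ctrl and 22636 in KD (log2 fold change 0.74, 0.71 to 0.77), and Btg2 had 3638 and 5716.5 (0.65, 0.59 to 0.71). Tob2 had 1592 and 2161 (0.44, 0.34 to 0.54), Tob1 had 679 and 724 (0.09, -0.06 to 0.25) and Btg3 had 337 and 300 (-0.16, -0.40 to 0.07, and 0.12 with the T cell core equalised). The CAF1-type genes that encode their partners, Cnot7 and Cnot8, stayed under that fold.

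Of 22 genes for RNA-binding proteins that bring CCR4-NOT to mRNAs, 21 were compared (Nanos3 was at 0 in both libraries). Their median was 0.12, with 4 at least 1.5-fold higher and 1 lower. A similar share of all genes compared, 17.2%, was higher. With the T cell core equalised, 7 were higher and 1 lower, against 4547 higher and 3247 lower of the 16659 genes compared. Zfp36 encodes tristetraprolin, which binds AU-rich elements, and had 3151 in Ctrl and 9664 in KD (1.62, 1.56 to 1.68). Zfp36l2, of the same family and the most abundant of the list, had 10826 and 19351 (0.84, 0.80 to 0.87). Zfp36l1 and Ago4 were also higher, and Samd4 was lower with 29 and 9 reads (-1.37, -2.72 to -0.34). Ythdf2, the m6A reader, had 2157 and 2242, and its change of 0.06 (-0.03 to 0.14) was within counting error. Ythdf2, Zfp36l1 and Ago4 fall outside the rule for named genes and were chosen after their values had been seen.

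**Figure D5:**
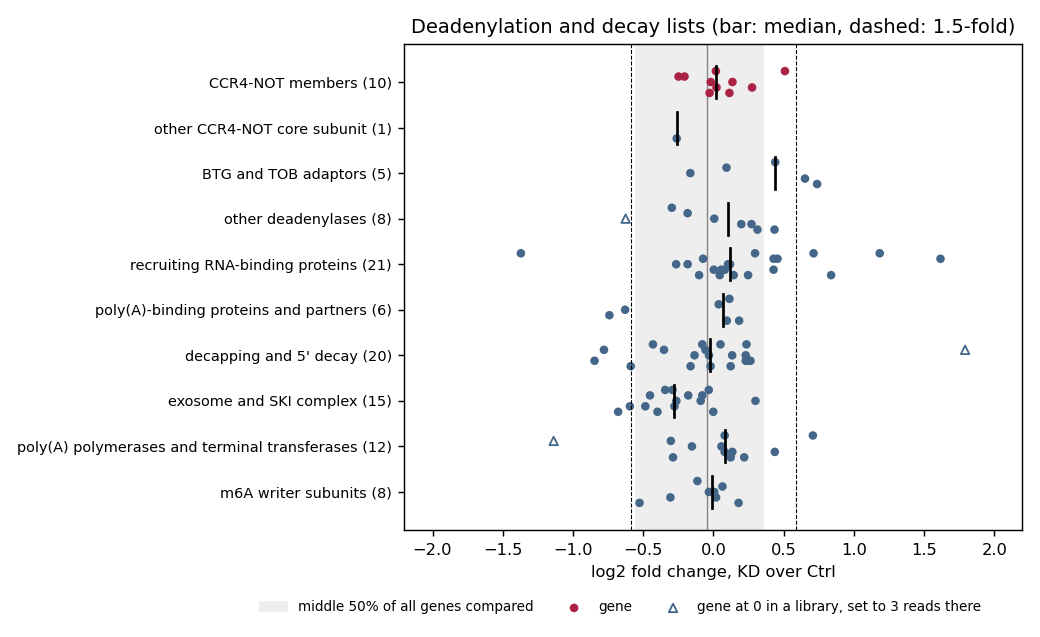
Change of the genes of 10 lists around deadenylation and mRNA decay. The horizontal axis is the log2 of KD over Ctrl, filled points are genes (red for the 10 subunit genes), triangles are genes at 0 in a library with 3 reads put there, black bars are list medians, dashed lines mark 1.5-fold and the grey band is the middle 50% of all genes. The subunit genes sit around 0.02, and Zfp36 (1.62) is the highest filled point.

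Other deadenylases act beside CCR4-NOT. Of 8 such genes with a median of 0.10, 0 were at least 1.5-fold higher and 1 was lower, Pnldc1 with 6 reads in Ctrl and 0 in KD. Pan2, the catalytic subunit of the PAN2-PAN3 deadenylase, had 1185 and 1602 (0.43, 0.32 to 0.55), and its partner Pan3 had 4030 and 4864 (0.27). Parn, the poly(A)-specific ribonuclease, had 1102 and 1106 (0.01). Pde12, a mitochondrial deadenylase, had 919 and 748 (-0.30, -0.44 to -0.15, and -0.01 with the T cell core equalised). The median over all genes compared was 0.24 on that scale. Noct had 593 and 522 (-0.18, and 0.10 with the T cell core equalised), Angel2 had 1377 and 1580 (0.20), and Angel1, with 115 and 143, was within counting error (0.31, -0.06 to 0.69).

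Poly(A)-binding proteins cover the tail that the complex removes. Of 6 genes with a median of 0.07, 0 were at least 1.5-fold higher and 2 lower, and none was past that fold with the T cell core equalised. Pabpc1, the main cytoplasmic form, had 33090 in Ctrl and 35341 in KD (0.09). Pabpc4 had 4441 and 2658 (-0.74, -0.81 to -0.67), and Pabpc1l had 66 and 36 reads (-0.63). Its regulators Paip1 (0.04), Paip2 (0.11) and Paip2b (0.18) stayed near 0.

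Downstream of deadenylation, 20 decapping and 5′ decay genes had a median of -0.03, with 1 higher and 3 lower. With the T cell core equalised the median was 0.26, against 0.24 over all genes compared, and 0 were lower. The higher gene was Patl2 with 0 and 11 reads. Ddx6, the helicase that links CCR4-NOT to decapping, had 11133 and 13057 (0.23), Lsm14a had 3308 and 3972 (0.26), and Lsm3, of the ring that binds shortened tails, had 886 and 492 (-0.85, -1.02 to -0.68). The 15 genes of the exosome, which degrades RNA from its 3′ end, and of the SKI complex had a median of -0.28. There 14 were below 0, but 0 were 1.5-fold higher and 2 were 1.5-fold lower. With the T cell core equalised the median became 0.01, still below the 0.24 of all genes compared, and 0 were lower. Exosc6 had 394 and 246 (-0.68), Exosc10 had 2763 and 2257 (-0.29) and Skiv2l had 2106 and 2592 (0.30).

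Poly(A) polymerases and terminal transferases extend tails. Of 13 genes 12 were compared (Tent5b was at 0 in both libraries), with a median of 0.08, 1 higher and 1 lower. Tut4, a uridylyl transferase, had 4090 and 6682 (0.71), Tut7 had 6159 and 7170 (0.22), Tent4a had 800 and 648 (-0.30, and -0.02 with the T cell core equalised), and Tent5d, the lower gene, had 9 and 0 reads. The 8 m6A writer subunits had a median of -0.01 with 0 past 1.5-fold in either direction. Mettl3, the catalytic subunit, had 1153 and 801 (-0.53, -0.66 to -0.39). Cbll1 had 869 and 984 (0.18), Virma 3677 and 3845 (0.06), Rbm15 1961 and 1987 (0.02), Wtap 2738 and 2749 (0.01), Rbm15b 1421 and 1390 (-0.03) and Zc3h13 3642 and 3365 (-0.11, and 0.17 with the T cell core equalised). Putting genes at 0 in a library at 3 reads there left the medians of these lists as they were.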

How the data were processed

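Poly(A) RNA of 1 Ctrl and 1 KD library of splenic Treg cells was sequenced, and the authors aligned the reads to mm10 with TopHat. The submitters' processing notes also name bcl2fastq 2.0, STAR, StringTie and DESeq2, with no role. The counter, annotation and size factors are not given in the sources used here. The deposited values are a signal, namely read counts on a scale particular to each library, and each came out whole within 0.01 reads (100% of values) when divided by the value of 1 read (0.967 in Ctrl, 1.14 in KD).

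Changes used a pseudocount of 1, a minimum mean of 1 and the 1.5-fold threshold of the methods. Intervals are exact (Clopper-Pearson for ratios and shares, Poisson for levels) at 95% and cover counting error only. The exact binomial test used the ratio of TMM-scaled library totals with Benjamini-Hochberg adjustment, on genes with at least 10 reads. All members were named, as were Mettl14, every gene of lists of at most 8 genes, and of longer decay lists the highest and lowest change and the highest mean value among genes with a mean of at least 10. The members and lists were chosen with earlier results of these data known. Alternatives were pseudocounts of 0.1 and 5, no filter or a minimum mean of 10, 4 other scalings, a 2-fold threshold, count tests and lengths per kilobase. Tools were Python 3.11.15 (numpy 2.4.6, scipy 1.17.1, pandas 2.3.3, matplotlib 3.10.9, Biopython 1.88) and edgeR 4.0.16 and DESeq2 1.42.0 in R 4.3.3. Steps were tested on simulated data.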

Additional observations from a re-analysis of the deposited data

How the results depend on the processing

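With 1 library per group, each value rests on that library, no replicate could be left out, and intervals cover counting error only. No paired analysis was possible because each group has 1 library. The scaling had the widest effect on the members: with the T cell core equalised, their median was 0.30, their summed log2 ratio 0.30, 1 member (Cnot11) was at least 1.5-fold higher, and so were 4547 genes in all. With library totals set equal, the median was -0.071 and the sum -0.077. The counts over all genes, 2864 higher and 4028 lower, moved with the filter and the test: 2035 were lower at a minimum mean of 10, and 2617 by the exact binomial test with 1.5-fold, which differs in filter and in criterion. A 2-fold threshold left 1722 higher, and the exact test of edgeR with a coefficient of 0.4 left 229 higher and 569 lower. The mean range of the members, a setting chosen after seeing the data, held 502 higher and 259 lower genes. Per kilobase, the Cnot6l share of its pair was 47.8% in Ctrl and 49.5% in KD by longest transcript, and 46.7% and 48.4% by all exons. The Cnot8 share was 74.8% and 72.9%, and 77.9% and 76.2%. The other 45 values of these main results moved by less than their counting error or, for counts of genes, by less than 1.5 times.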
